A study of Mus musculus with 30 samples.

Results

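The response of mesenteric fat to a high-fat diet was set beside the response of cultured mesenteric adipocytes to lipopolysaccharide (LPS), miRNA by miRNA, in 18 of the 30 samples of the series. The members were chosen by their labels and not by a cut on their values, though with earlier results of these data known. Every one of the 566 mouse miRNA probes was eligible in each of the 18 samples. MAT is mesenteric adipose tissue, which surrounds the gut. 5 samples came from male C57BL6 mice, an inbred strain, given a diet of 60% fat (MAT-HFD) between 4 and 20 weeks of age, and 5 came from male C57BL6 mice given normal chow over the same weeks (MAT-NCD). The cultured cells (MAT-Ad) were grown from stromal vascular cells of the mesenteric fat of chow-fed male C57BL6 mice, which were turned into adipocytes in the dish. 4 samples received 1 µg/ml LPS for 24 h (MAT-Ad-LPS) and 4 received phosphate-buffered saline for 24 h (MAT-Ad-PBS).

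LPS is a wall component of Gram-negative bacteria that sets off inflammatory signalling through Toll-like receptor 4 and the transcription factor NF-kB. Fat that expands on a high-fat diet is known for a low-grade inflammation of its own, in which immune cells enter the tissue and adipocytes, stromal and vessel cells change with them. miRNAs are short RNAs that lower the output of mRNAs paired to their seed, the bases 2 to 8. Some of them are NF-kB targets, others follow oxygen, cell division or adipocyte maturation, so the 2 responses put side by side ask which miRNAs move in both, in 1 alone or in opposite directions.

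The effects were differences of mean log2(signal + 1), MAT-HFD minus MAT-NCD for the diet and MAT-Ad-LPS minus MAT-Ad-PBS for LPS. A miRNA was called where limma's moderated test gave a Benjamini-Hochberg adjusted p under 0.05 over all miRNAs tested in that comparison. Separate animals or cultures are not named in the labels for the samples of a group, and the p-values therefore reflect the spread between samples only, some of which may be technical. Tissue is a mixture of cell types, and in such bulk samples fewer cells of a type and less RNA per cell cannot be told apart.

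The sequences that carry the comparison are those of miRNAs with effects above 0 in both comparisons, of those called with the diet and near the floor in culture, of the 3 miRNAs whose effects differed while measurable in both kinds of sample, and of their closest relatives. They are the mature sequences of RefSeq (GRCm38.p6), with the seed in capitals. The deposited table names most miRNAs without an arm, and the arm shown is the one that current naming gives to the older name.
miR-221: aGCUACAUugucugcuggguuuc
miR-222: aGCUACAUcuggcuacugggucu
miR-21: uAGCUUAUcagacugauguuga
miR-322: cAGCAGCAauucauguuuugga
miR-15a: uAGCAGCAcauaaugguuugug
miR-210: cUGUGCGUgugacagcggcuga
miR-146a: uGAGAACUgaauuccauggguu
miR-146b: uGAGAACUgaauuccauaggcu
miR-335-5p: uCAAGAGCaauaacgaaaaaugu
miR-652: aAUGGCGCcacuaggguugug

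3 seeds recur in these sequences. miR-221 (chrX:19146307-19146329, minus strand) and miR-222 (chrX:19146901-19146923, minus strand) share the seed GCUACAU and 11 of 23 aligned bases, and their hairpins are 504 bases apart. miR-146a (chr11:43374435-43374456, minus strand) and miR-146b (chr19:46342790-46342811, plus strand) share the seed GAGAACU and 20 of 22 bases, with the substitutions G18A and U21C counted from the 5′ end of miR-146a. miR-322 (chrX:53054306-53054327, minus strand, within the bounds of the lncRNA gene C430049B03Rik) and miR-15a (chr14:61632075-61632096, minus strand, within the lncRNA gene Dleu2) share the seed AGCAGCA and 15 of 22 bases. miR-210 (chr7:141221407-141221428, minus strand) shares its seed with no other miRNA shown. miR-335-5p (chr6:30741314-30741336, plus strand) lies within Mest, an imprinted gene known to rise in expanding mouse fat, miR-652 (chrX:142739060-142739080, plus strand) within Tmem164, and miR-21 (chr11:86584120-86584141, minus strand) within Vmp1.

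Depth differed between the 2 kinds of sample. Total miRNA signal was 311130 to 496704 in MAT-HFD and 270569 to 351783 in MAT-NCD, against 79830 to 142968 in MAT-Ad-LPS and 70149 to 102148 in MAT-Ad-PBS. Between 142 and 172 probes lay over the detection limit of 29.8 in fat, and between 82 and 111 in culture. Log2 values of replicates correlated at 0.950 to 0.973 in fat and 0.919 to 0.963 in culture. Within each kind the total leaned the same way, 1.24-fold higher in MAT-HFD than in MAT-NCD (exact permutation test, two-sided, p = 0.056, n = 5 each) and 1.21-fold higher in MAT-Ad-LPS than in MAT-Ad-PBS (p = 0.26 by the same exact test, n = 4 each, where 0.029 is the smallest p possible), neither of which passed before or after adjustment. The deposited values of both kinds carry the authors' own scaling, and levels set across kinds rest on it. The median effect over all miRNAs tested was 0.31 for the diet and 0.29 for LPS on the log2 scale. The medians were 0.32 and 0.38 when samples were scaled to their positive controls. Scaling to the 100 most abundant miRNAs brings the profile near 0 by construction, with medians of 0.01 for the diet and -0.05 for LPS. An effect of about 0.3 is thus the median of the profile in the values as deposited.

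Red cell and endothelial markers, abundant in fat, were under the limit in the cultured cells, while part of the leukocyte list was not. All 3 red cell markers, both arms of the endothelial miR-126, all 6 striated muscle markers, all 4 pancreas markers and the liver miRNA miR-122 were under the limit in all 8 culture samples. All 4 pancreas markers and 4 of the 6 striated muscle markers were under it in every fat sample too. Of 7 leukocyte markers, 3 were over the limit in all 8 culture samples: miR-146a, miR-342-3p and miR-142-5p, the last of which averaged 290 in MAT-Ad-LPS and 237 in MAT-Ad-PBS, close to its 228 in MAT-HFD and 249.6 in MAT-NCD. miR-150 and miR-142-3p reached at most 5.35 in culture, against 300.4 to 22178 across the 10 fat samples, and miR-155 was at the floor throughout. The summed leukocyte markers were 10915 to 34165 in MAT-HFD, 6153 to 31941 in MAT-NCD, 722 to 1433 in MAT-Ad-LPS and 396 to 507 in MAT-Ad-PBS. The gap between the culture sums was mostly that of miR-146a, which averaged 743 in MAT-Ad-LPS and 95.4 in MAT-Ad-PBS. For miR-342-3p the means were 138 and 107. Of 20 miRNAs known to rise as adipocytes mature, 13 were over the limit in all 4 MAT-Ad-LPS samples and 11 in all 4 MAT-Ad-PBS samples, while miR-26a, miR-193b and miR-92a were at the floor in culture. The red cell miRNA miR-451 read 57354 in MAT-HFD replicate 2, while the remaining 4 MAT-HFD samples read 2710 to 6964 and the MAT-NCD samples 2667 to 7622.

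More miRNAs were called with the diet, over 10 samples, than after LPS, over 8. Of 157 miRNAs tested in fat, 24 were called (15.3%), 23 higher and 1 lower in MAT-HFD (14.6% and 0.637%), and 45 had an unadjusted p under 0.05 (28.7%). The groups were fully apart for 12 miRNAs that were higher in MAT-HFD (7.64%). Among these, miR-222 and miR-335-3p had to be apart, since they passed the filter through their MAT-HFD samples alone. The split was 18 and 5 with samples centred on their median, 12 and 5 after quantile normalization, and 15 and 7 with samples scaled to their 100 most abundant miRNAs. The count also turned on single samples: it was 48 without MAT-HFD replicate 1, 14 without MAT-HFD replicate 5, 10 without MAT-HFD replicate 4, 9 without MAT-HFD replicate 2 or MAT-NCD replicate 1, and 8 without MAT-NCD replicate 3 or 4. The 7 miRNAs called in all 10 such runs were miR-221, miR-222, both arms of miR-335, miR-652, miR-322 and miR-199a-3p. For miR-222 and miR-335-3p the filter favoured a call in each run, so this is no sign of stability. In culture, 2 of 98 tested (2.04%) were called, miR-146a and miR-221, both higher in MAT-Ad-LPS, and none was lower (4 higher and 1 lower with samples centred, 2 and 1 after quantile normalization or scaled to the 100 most abundant), while 11 had an unadjusted p under 0.05 (11.2%). The labels number the samples but do not state that equal numbers are pairs. Same-numbered culture samples deviated alike from their group means (correlation 0.504 to 0.875), a pairing read from these same data. The LPS counts above did not use it. With the number as a block 8 of 98 were called after LPS (8.16%), 7 higher and 1 lower (7.14% and 1.02%). Under the block miR-146a and miR-221 were joined by miR-26b, miR-350, miR-377, let-7a and the joint probe of miR-20a and miR-20b, all higher, and by miR-322, lower.

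90 miRNAs were measured in both comparisons, 67 were tested in fat alone and 8 in culture alone. Of the 67, 44 were under the limit in all 8 culture samples. The comparison of the responses thus covers the part of the fat profile that the cultured cells also hold.

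Both effects leaned upward, and the shared direction was not kept when that lean was scaled away. Of the 90 miRNAs, 66 (73.3%) had effects of the same sign: 61 were higher in both MAT-HFD and MAT-Ad-LPS and 5 lower in both, while 6 were higher in MAT-HFD and lower in MAT-Ad-LPS and 18 the reverse. Taken singly, 74.4% of the diet effects and 87.8% of the LPS effects were above 0. The share was 46.7% with samples scaled to their 100 most abundant miRNAs, 45.6% after quantile normalization and 56.7% after centring each sample on its median. These scalings take out a common lean by construction. Scaled to the positive controls, the lean stayed: 111 of 157 tested diet effects and 87 of 98 LPS effects were above 0.

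The correlation of the effects turned on 1 miRNA. Pearson's r across the 90 miRNAs was 0.304 and Spearman's rho -0.0151. Without miR-221 r was -0.0889 and rho -0.0497 over 89 miRNAs, and over the 66 miRNAs above the limit in all 18 samples r was 0.0239. These correlations are across miRNAs that share samples and are given without a test. Taking the LPS effect from 1 numbered pair of cultures at a time, r ran from 0.0199 to 0.399, and without miR-221 from -0.241 to 0.0699. The effects were not large against their error: they had an SD of 0.62 for the diet and 0.59 for LPS, beside a median standard error of 0.26 and 0.30.

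**Figure D1:**
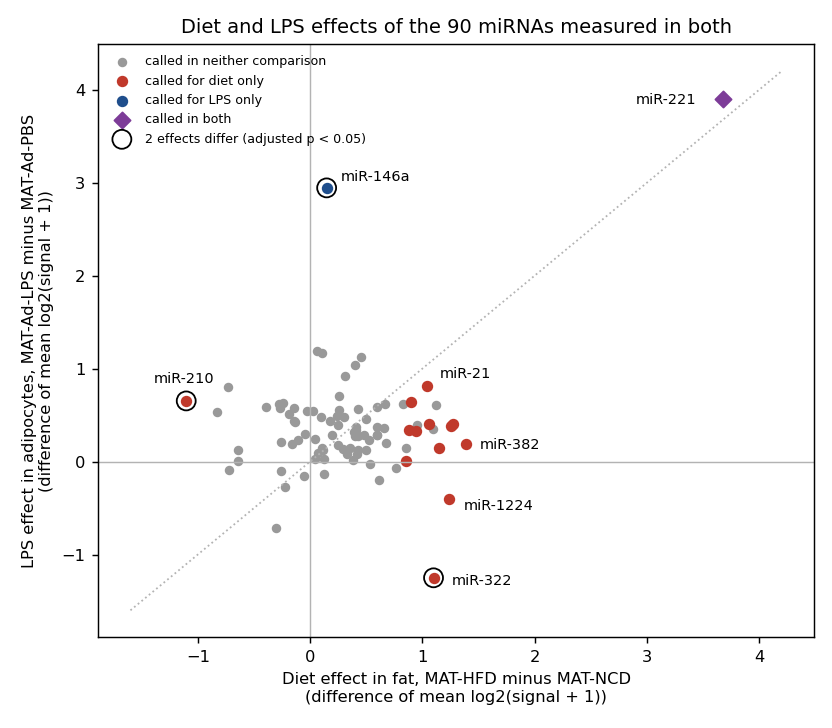
Diet effect (horizontal axis, MAT-HFD minus MAT-NCD) against LPS effect (vertical axis, MAT-Ad-LPS minus MAT-Ad-PBS) of the 90 miRNAs measured in both, as differences of mean log2(signal + 1). Points are miRNAs, colours mark calls, rings mark the 3 miRNAs whose effects differed, and the dotted line marks equal effects; miR-221 stands alone in the upper right at 3.67 and 3.90, and the other points form a cloud without a slope.

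miR-221 was the 1 miRNA called in both responses when the cultures were not paired. It is known to restrain the cell cycle inhibitor p27 and the receptor KIT, to fall as adipocytes mature and to rise in obese mouse fat. Its signal was 212, 421, 364, 430 and 427 in MAT-HFD, against 15.4, 53.9, 14.9, 32.7 and 36.2 in MAT-NCD. All 5 MAT-HFD samples lay above all 5 MAT-NCD samples. In culture it was 53.7, 181, 57.1 and 129 in MAT-Ad-LPS, against 1.04, 5.02, 9.16 and 11.1 in MAT-Ad-PBS. All 4 LPS samples were over the detection limit and all 4 PBS samples under it, so it entered the culture test through its LPS samples alone and had to differ there. The diet effect was 3.67 ± 0.37 (log2, SE, adjusted p = 2.5e-05) and the LPS effect 3.90 ± 0.60 (adjusted p = 0.0034). Counting PBS values at the limit, the LPS rise was at least 3.09-fold. On the same footing, with MAT-NCD values below the limit raised to it, the diet rise was 10.1-fold. The effects differed by -0.23, with a 95% interval of -1.78 to 1.32 (adjusted p = 0.91), which leaves room for a difference of more than 1 log2 unit either way. Since the LPS rise is known only as a bound, the 2 sizes cannot be ordered. In both kinds of sample the signal ended up higher, and the MAT-Ad-LPS samples reached 53.7 to 181, below every MAT-HFD sample. Their total miRNA signal was lower too, at a mean of 108720 against 392031 in MAT-HFD. The levels thus do not order the share of miR-221 in the 2 profiles.

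miR-222, which carries the same seed and lies beside miR-221, was seen in fat only. It read 37.5, 96.7, 44.9, 77.5 and 80.2 in MAT-HFD, against 1 to 3.64 in MAT-NCD. In culture it stayed at 1 to 1.42 in MAT-Ad-LPS and 1 to 1.26 in MAT-Ad-PBS, which is the floor of the deposited values. The rise with diet was at least 2.12-fold. No MAT-NCD sample passed the limit, so miR-222 entered the diet test through its MAT-HFD samples alone and had to differ there, as did miR-335-3p. The diet effect exceeded the LPS effect by 4.45 (95% interval 3.56 to 5.34, adjusted p = 1.1e-06), where the LPS side is a value at the floor and only bounds it.

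3 of the 90 miRNAs measured in both had effects that differed from each other, 3.33%, against 11 of 173 (6.36%) over all miRNAs tested for a difference, 6 with the higher effect on the diet side (3.47%) and 5 on the LPS side (2.89%). They were miR-322, miR-210 and miR-146a, and their arrangements were not the same: effects of opposite sign with the diet effect above 0, effects of opposite sign with the LPS effect above 0, and a call after LPS alone.

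miR-322, the mouse counterpart of human miR-424 and a relative of the miR-15 and miR-16 family that holds back cell division, rose with the diet and read lower after LPS. It measured 1040, 980, 673, 1065 and 976 in MAT-HFD, against 405, 562, 398, 383 and 453 in MAT-NCD, with no overlap. In culture it measured 16, 12, 27.6 and 42.3 in MAT-Ad-LPS, against 30.8, 64.1, 46.3 and 88.7 in MAT-Ad-PBS. The culture groups overlapped, all 4 PBS samples were over the limit and 1 of the 4 LPS samples was. The diet effect was 1.10 ± 0.20 (SE, adjusted p = 0.0045) and the LPS effect -1.25 ± 0.44 (adjusted p = 0.29). With cultures matched by number the LPS effect was called (adjusted p = 0.00058), and it was negative in each of the 4 pairs, at -0.73 to -2.32. The difference of the effects was 2.35 (95% interval 1.34 to 3.36, adjusted p = 0.0038).

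miR-15a, which shares that seed, was called with the diet and not after LPS, but the diet call was lost in 7 of the 10 runs without 1 sample and under all 4 rescalings. It measured 1077, 1205, 589, 912 and 1021 in MAT-HFD, against 449, 702, 414, 558 and 434 in MAT-NCD, and its diet effect was 0.90 ± 0.24 (SE, adjusted p = 0.029). In culture it measured 64.7, 115, 109 and 59.4 in MAT-Ad-LPS, against 44.3, 62.8, 86.2 and 32.9 in MAT-Ad-PBS, with an LPS effect of 0.64 ± 0.36 (adjusted p = 0.54). Its effects differed by 0.25 (95% interval -0.67 to 1.18). Whether miR-322 and miR-15a differ from each other was not tested. The relatives miR-16 and miR-15b were not called in either comparison, with diet effects of 0.59 and 0.33 and LPS effects of 0.29 and 0.08.

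miR-210, the miRNA best known for its induction by hypoxia-inducible factor, was the 1 miRNA called lower with the diet. It measured 14.9, 27.6, 39.7, 47.8 and 22.1 in MAT-HFD, against 59.8, 66.8, 60.9, 46.7 and 77.9 in MAT-NCD. 3 of the 5 MAT-HFD samples were under the detection limit, and 1 exceeded the lowest MAT-NCD sample. In culture it stood much higher, at 254, 373, 388 and 357 in MAT-Ad-LPS, against 188, 211, 191 and 282 in MAT-Ad-PBS. The diet effect was -1.10 ± 0.30 (SE, adjusted p = 0.029) and the LPS effect 0.65 ± 0.25 (adjusted p = 0.37), positive in all 4 numbered pairs at 0.34 to 1.02. The difference was -1.76 (95% interval -2.62 to -0.89, adjusted p = 0.010). The diet call taken alone was lost in 7 of the 10 runs that each left out 1 fat sample, while the difference was called in all 18 such runs.

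miR-146a, an NF-kB target that feeds back on the adaptor proteins IRAK1 and TRAF6, rose after LPS and was not called in fat. It measured 427, 1002, 903 and 640 in MAT-Ad-LPS, against 111, 136, 61.5 and 73.4 in MAT-Ad-PBS, with no overlap. In fat it measured 2124, 1196, 1666, 1526 and 3192 in MAT-HFD, against 2274, 2534, 1418, 2227 and 681 in MAT-NCD, and both groups spread over the same range. The LPS effect was 2.94 ± 0.36 (SE, adjusted p = 0.0010), a 7.69-fold rise, and the diet effect 0.15 ± 0.38 (95% interval -0.69 to 0.99, adjusted p = 0.80). The difference was -2.80 (95% interval -4.0 to -1.59, adjusted p = 0.0038). Total miRNA signal averaged 392031 in MAT-HFD and 312788 in MAT-NCD, against 108720 in MAT-Ad-LPS. Signals set across the kinds therefore do not give shares of the profile. In signal, fat read above LPS-treated cells on either diet, with 1 exception: MAT-NCD replicate 5, at 681, lay inside the LPS range. That sample was also the lowest of the fat samples in miR-142-3p (300.4) and miR-342-3p (921), both leukocyte markers. Its values of miR-223, miR-150 and miR-142-5p, of the same list, are not given here. The part of leukocytes in the fat values of miR-146a was not tested.

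miR-146b, which differs from miR-146a at 2 bases outside the seed, was called in fat instead. It measured 68.2, 104, 110, 136 and 136 in MAT-HFD, against 19.8, 73.8, 26.2, 40.3 and 41.3 in MAT-NCD, with a diet effect of 1.54 ± 0.34 (SE, adjusted p = 0.014). In culture 2 of 4 MAT-Ad-LPS samples and 1 of 4 MAT-Ad-PBS samples passed the limit, at 7.36 to 42.3 and 4.69 to 31.8, too few for the test. The difference of its effects was 0.94 (95% interval -0.60 to 2.48, adjusted p = 0.57). miR-155 and miR-147, a pair of well-known LPS-induced miRNAs of macrophages, were at the floor in all 18 samples.

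**Figure D2:**
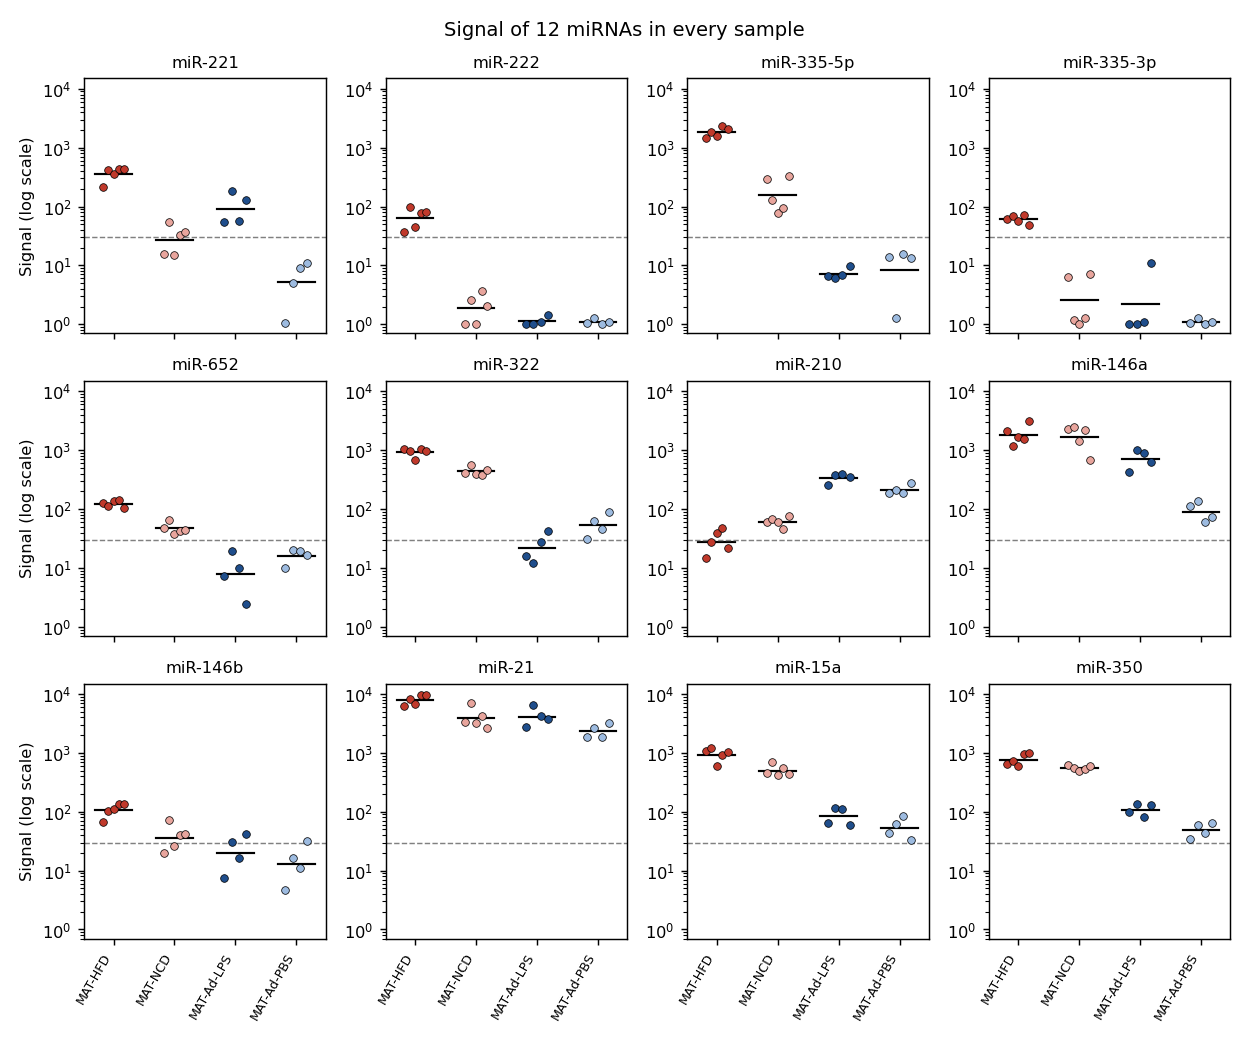
Signal of 12 miRNAs in every sample (log axis), with MAT-HFD and MAT-NCD on the left of each panel and MAT-Ad-LPS and MAT-Ad-PBS on the right. Points are samples, black bars are group means taken on the log2(signal + 1) scale, and the dashed line is the detection limit of 29.8; miR-221 is higher in both treated groups, miR-322 and miR-210 move in opposite directions, and miR-146a is raised in LPS-treated cells with no separation in fat.

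8 further differences were called for miRNAs measured in only 1 kind of sample, so 1 side of each rests on values near or under the detection limit. On the diet side stood both arms of miR-335, miR-652 and miR-222. miR-335-5p measured 1469, 1811, 1582, 2354 and 2057 in MAT-HFD, against 292, 127, 76.2, 93.5 and 330 in MAT-NCD, and no more than 15.8 in any culture sample. Its diet effect of 3.56 ± 0.40 (SE, adjusted p = 5.6e-05) exceeded the LPS effect by 3.77 (adjusted p = 0.0038). The miR-335-3p arm measured 48.8 to 71.5 in MAT-HFD against 1.02 to 7.11 in MAT-NCD and at most 11.0 in culture, and the difference was 3.51 (adjusted p = 0.0040). miR-652 measured 127, 112, 138, 143 and 105 in MAT-HFD, against 48.3, 65.6, 38.4, 42.9 and 45.0 in MAT-NCD, and stayed at 2.49 to 19.2 in MAT-Ad-LPS and 9.90 to 20.1 in MAT-Ad-PBS. Its difference was 2.29 (adjusted p = 0.0089), with every culture value under the limit.

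The remaining 4 turned on signals under the limit and were not called once such values were set to it, a setting that turns the effect resting on them into a lower bound and so shrinks the difference by construction. miR-19a, a member of the miR-17-92 cluster, measured 15.2, 32.2, 84.4 and 36.7 in MAT-Ad-LPS, against 1 to 1.26 in MAT-Ad-PBS, while fat showed 37.6 to 242 in MAT-HFD and 46.3 to 319 in MAT-NCD. Its difference of -4.33 (adjusted p = 0.0038) became -0.68 (adjusted p = 0.70). miR-193 measured 7.92 to 19.2 in MAT-Ad-LPS against 1.04 to 3.45 in MAT-Ad-PBS, all under the limit, and its difference of -3.48 (adjusted p = 0.0036) became -0.97 (adjusted p = 0.26). miR-106b measured 21.5 to 38.0 in MAT-Ad-LPS against 1.04 to 13.0 in MAT-Ad-PBS, and its difference of -2.62 (adjusted p = 0.042) became 0.049 (adjusted p = 0.96). miR-1983 measured 3.16 to 26.1 in MAT-HFD against 1 to 1.27 in MAT-NCD, and its difference of 2.34 (adjusted p = 0.030) became -0.16 (adjusted p = 0.81).

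**Figure D3:**
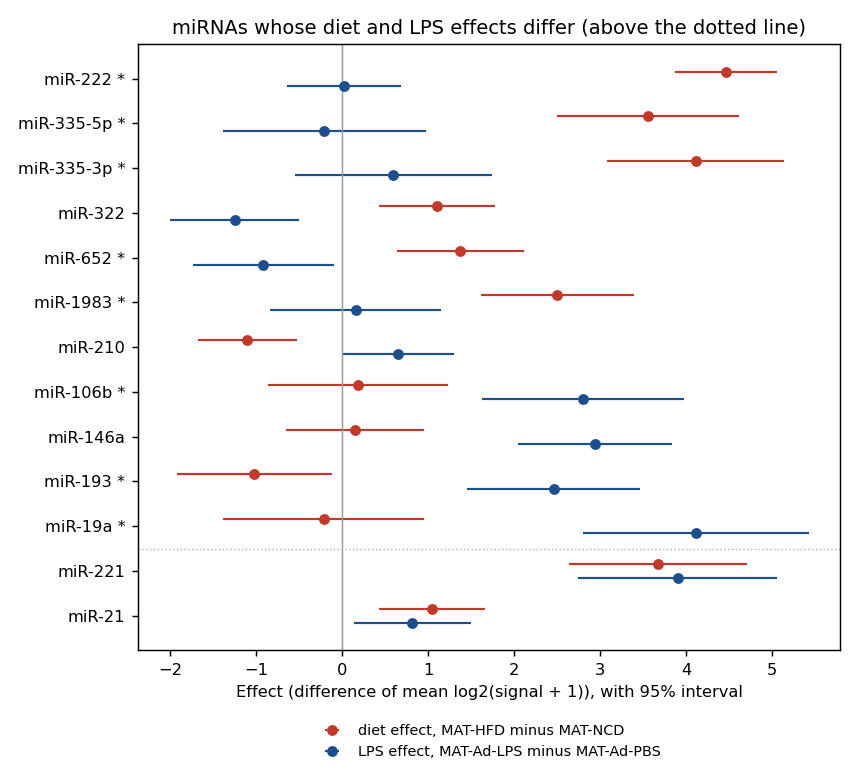
Diet effect (red) and LPS effect (blue) of the 11 miRNAs whose effects differed, above the dotted line, and of miR-221 and miR-21 below it, as differences of mean log2(signal + 1) with 95% intervals from the fit over all 18 samples. An asterisk marks the 8 miRNAs measured in only 1 of the comparisons; for miR-222 the diet effect is 4.47 and the LPS effect 0.02, and for miR-221 they are 3.67 and 3.90.

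For most miRNAs the data do not settle whether the responses differ. Over the 90 measured in both, the median size of the difference was 0.37 log2 units and the median half-width of its 95% interval 0.88. The interval excluded 0 before adjustment for 11 of the 90, and it lay within 1 log2 unit of 0 for 16.

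Of the 24 diet calls, 14 were measurable in culture, and among these 12 were higher and 2 lower after LPS. This is near the 87.8% of all 90 that were higher. Groups were fully apart, with all LPS samples higher, for 4 of the 98 miRNAs tested (4.08%): miR-146a, miR-350, miR-26b and miR-221, the last by the way it passed the filter.

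miR-21, one of the most abundant of the inflammation-linked miRNAs and known to restrain PDCD4, was higher in both. It measured 6198, 8100, 6811, 9573 and 9704 in MAT-HFD, against 3328, 7058, 3225, 4232 and 2656 in MAT-NCD. In culture it measured 2784, 6451, 4259 and 3766 in MAT-Ad-LPS, against 1880, 2677, 1828 and 3256 in MAT-Ad-PBS. Each pair of groups overlapped by 1 or more samples. The diet effect of 1.04 ± 0.28 (SE, adjusted p = 0.028) was called, and the LPS effect of 0.82 ± 0.32 (adjusted p = 0.37) was not, with an unadjusted p of 0.030. That diet call was kept in only 3 of the 10 runs without 1 sample. It was also lost with no filter and when scaled to the positive controls. The effects differed by 0.23 (95% interval -0.69 to 1.15, adjusted p = 0.82).

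The other diet calls measured in both had LPS effects of -0.40 to 0.41, apart from the miRNAs already described, and none of these was called. miR-27a, which holds back PPARγ and adipocyte maturation, rose by 0.85 with the diet and had an LPS effect of 0.00. The miR-199a arms, found in mesenchymal cells, rose by 0.95 and 1.06 with the diet, against LPS effects of 0.33 and 0.41. The p53 target miR-34a (1.27 and 0.40), the leukocyte-rich miR-342-3p (1.26 and 0.38), the CREB target miR-132 (0.88 and 0.34), and miR-382 and miR-329 of the imprinted Dlk1-Dio3 cluster (1.39 and 0.19, 1.15 and 0.14) had the same arrangement of diet before LPS effect. miR-1224 rose by 1.23 with the diet and had a negative LPS effect of -0.40 (adjusted p = 0.67). None of these differences between the effects was called, at adjusted p from 0.14 for miR-27a and miR-1224 to 0.56 for miR-132. The differences of miR-27a, miR-199a-3p and miR-382 were called after quantile normalization and when scaled to the 100 most abundant miRNAs, and that of miR-1224 when centred or scaled to the 100 most abundant.

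10 diet calls could not be tested in culture. 7 of them, miR-222, both arms of miR-335, miR-652, miR-126-3p, miR-149 and miR-411, were under the limit in all 8 culture samples. miR-126-3p, the endothelial miRNA, measured 22265 to 33686 in MAT-HFD against 15219 to 21912 in MAT-NCD and at most 14.9 in culture. miR-146b, the myeloid miR-223 and miR-495 passed the limit in some culture samples but in too few. None of these 10 was over the limit in more than 2 of the 4 MAT-Ad-LPS samples, so their LPS effects were not tested alone.

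After LPS the smallest p-values without a call were those of miR-350, miR-26b and the joint probe of miR-20a and miR-20b. miR-350 measured 99.2, 133, 82.2 and 129 in MAT-Ad-LPS, against 34.9, 60.3, 43.4 and 64.6 in MAT-Ad-PBS, with no overlap. Its LPS effect was 1.13 (adjusted p = 0.097, called with the replicate block) and its diet effect 0.45 (adjusted p = 0.17). miR-26b, known from human preadipocytes to favour maturation, measured 52.9, 99.3, 53.8 and 86.5 in MAT-Ad-LPS, against 30.8, 26.4, 20.6 and 50.4 in MAT-Ad-PBS. Its LPS effect was 1.19 (adjusted p = 0.15, called with the block), while in fat it was 0.06, and the effects differed by -1.13 (unadjusted p = 0.0080, adjusted p = 0.115). With the replicate block that difference was called, as it was after quantile normalization and scaled to the 100 most abundant. The miR-20 probe had an LPS effect of 1.04 and a diet effect of 0.40.

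No other miRNA measured in both was called after LPS in the main test, which left the pairing out. After miR-221 and miR-21, the largest effects above 0 in both were those of miR-15a, miR-369-3p (0.67 with the diet and 0.62 after LPS) and miR-376b (0.83 and 0.62). The 5 miRNAs lower in both were miR-30c, miR-202-5p, miR-1944, miR-1196 and miR-2141. Of these miR-30c, a miRNA that rises in adipocyte maturation, had the largest effects below 0 in both: 3153 to 4419 in MAT-HFD against 4068 to 5966 in MAT-NCD, and 65.4 to 99.3 in MAT-Ad-LPS against 96.7 to 212 in MAT-Ad-PBS. Its effects were -0.30 (adjusted p = 0.31) and -0.71 (adjusted p = 0.38). Under 3 rescalings of the samples, by the median, by quantiles and by the 100 most abundant miRNAs, its LPS effect was called lower, and under the last of them its diet effect was too. In the opposite direction stood miR-720, an entry since regarded as a tRNA fragment, with -0.73 and 0.80, and the joint probe of miR-1937a and miR-1937b, with -0.83 and 0.53, none of them called.

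Lists of miRNAs with a common role were described by counts and medians, beside the medians of 0.31 and 0.29 over all tested. The lists were chosen with earlier results of these data known, so their counts are no independent support. Of miRNAs known to respond to LPS or NF-kB, 6 of 14 tested were called higher with the diet (median 0.68), where 14.6% of all tested were, and 3 or 4 of 14 under the 4 rescalings. The 6 were miR-221, miR-222, miR-146b, miR-21, miR-132 and miR-223, of which miR-222 had to differ by the way it passed the filter. After LPS 2 of 8 were called higher, miR-146a and miR-221, where 2.04% of all tested were. Of these, miR-221 had to differ by the way it passed the filter, so the count cannot be set against that share. The median of 0.31 became -0.03 when scaled by quantiles or to the 100 most abundant. The list's most abundant member, miR-125b-5p, known to target TNF mRNA, had effects of 0.42 and 0.08. Of miRNAs reported in obese adipose tissue, 12 of 27 tested were called higher with the diet and none lower, where 14.6% of all tested were called higher. Under each of the 4 rescalings 7 of 27 were called higher, with up to 2 lower, beside 12 to 18 of 157 higher over all tested. The median of 0.42 was 0.0044 after quantile normalization. The 12 include miR-222 and miR-335-3p, which passed the filter through MAT-HFD alone and had to differ. After LPS 1 of 16 of the list was called, miR-221, which had to differ there. The LPS median of 0.32 became -0.02 when scaled to the 100 most abundant.

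The list of maturation miRNAs lay below the median of all tested with the diet and above it after LPS. Of miRNAs that rise as adipocytes mature, 1 of 19 tested was called higher with the diet (miR-335-5p) and 1 lower (miR-210), with a median of 0.04. After LPS none of 14 was called, and the median was 0.49; with the replicate block miR-26b and the joint miR-20 probe were called higher. The order held with samples scaled to their 100 most abundant miRNAs, at -0.25 for the diet and 0.15 for LPS. There 10 of 14 were higher after LPS, beside 43 of 98 over all tested, and miR-30c was called lower. The miR-29 family, which holds back collagen mRNAs, had medians of -0.03 with the diet and 0.54 after LPS (3 members each, none called), and -0.33 and 0.20 under that scaling. Of miRNAs that oppose adipocyte maturation, 3 of 11 were called higher with the diet (median 0.42), beside 14.6% of all tested, and 1 of 7 after LPS, miR-221, beside 2.04%. By the way they passed the filter, miR-222 among the 3 and miR-221 after LPS had to differ. The LPS median of 0.12 became -0.22 when scaled to the 100 most abundant.

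The Dlk1-Dio3 cluster, a set of imprinted miRNAs of chromosome 12 that is rich in stem and stromal cells, had the largest diet median of the lists with 3 or more members tested. All 15 tested members read higher in MAT-HFD with a median of 1.05, beside 111 of 157 (70.7%) over all tested. Scaled to the 100 most abundant miRNAs, 13 of 15 did with a median of 0.75, beside 81 of 157. 4 of the 15 were called, miR-382, miR-329, miR-411 and miR-495, where 14.6% of all tested were called higher. After LPS all 9 tested read higher with a median of 0.38, near the 84 of 98 (85.7%) over all tested. Under that scaling 6 of 9 did with a median of 0.03, beside 43 of 98. None was called except miR-377, higher, with the replicate block. Beside this, the summed mesenchymal markers were 5803 to 9828 in MAT-HFD and 3578 to 4944 in MAT-NCD, against 3105 to 4957 in MAT-Ad-LPS and 2489 to 3287 in MAT-Ad-PBS, and their part in the diet effect of the cluster was not tested.

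The let-7 family, the abundant miRNAs of differentiated cells, had small effects in both. All 9 members read higher, with medians of 0.31 and 0.39, where 70.7% of all tested did with the diet and 85.7% after LPS. None was called except let-7a, higher after LPS with the replicate block. Under the scaling to the 100 most abundant 5 of 9 were higher in each, beside 81 of 157 and 43 of 98 over all tested. let-7i measured 4289 to 6938 in MAT-HFD against 3148 to 4678 in MAT-NCD, and 3728 to 7556 in MAT-Ad-LPS against 3083 to 4339 in MAT-Ad-PBS. Its effects were 0.60 (adjusted p = 0.064) and 0.59 (adjusted p = 0.50).

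**Figure D4:**
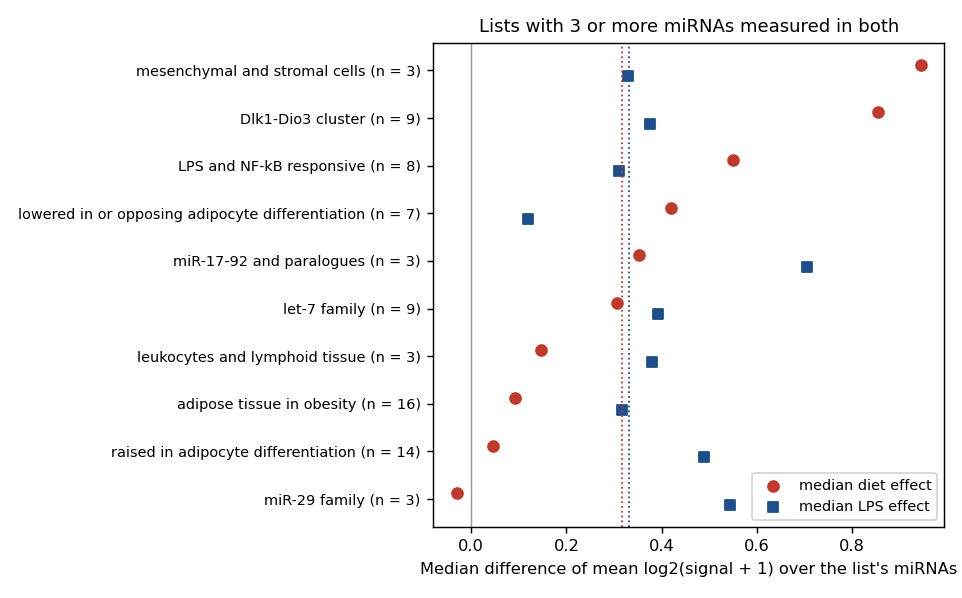
Median diet effect (red circles) and median LPS effect (blue squares) of each list with 3 or more miRNAs measured in both, as differences of mean log2(signal + 1); n is the number of such miRNAs. Dotted lines mark the medians over all 90 miRNAs, 0.32 for the diet and 0.33 for LPS; the Dlk1-Dio3 cluster lies to the right for the diet, and the miR-29 family and the list raised in adipocyte differentiation lie to the right for LPS and to the left for the diet.

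B2m, the light chain of class I MHC and a gene known to be induced by inflammatory signalling, was 1 of 4 mRNA probes measured beside the miRNAs, and it read higher in both treated groups without passing adjustment. It averaged 8193 ± 1289 in MAT-HFD and 5223 ± 1368 in MAT-NCD (SD, n = 5 each, 1.60-fold, exact permutation test, two-sided, p = 0.016). It averaged 1324 ± 431 in MAT-Ad-LPS and 669 ± 63.6 in MAT-Ad-PBS (SD, n = 4 each, 1.92-fold, exact permutation p = 0.029, the smallest possible). Adjusted over the 12 comparisons of totals and mRNA probes, both p-values became 0.069 (Benjamini-Hochberg on the exact permutation p). Relative to the mean of Actb, Gapdh and Rpl19, a scale chosen after seeing the data, the log2 differences were 0.81 and 0.80 with the same adjusted p of 0.069, and all treated samples lay above all controls. Rpl19 itself was 0.799-fold in MAT-HFD relative to MAT-NCD (exact permutation p = 0.024, n = 5 each, adjusted p = 0.069).

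**Figure D5:**
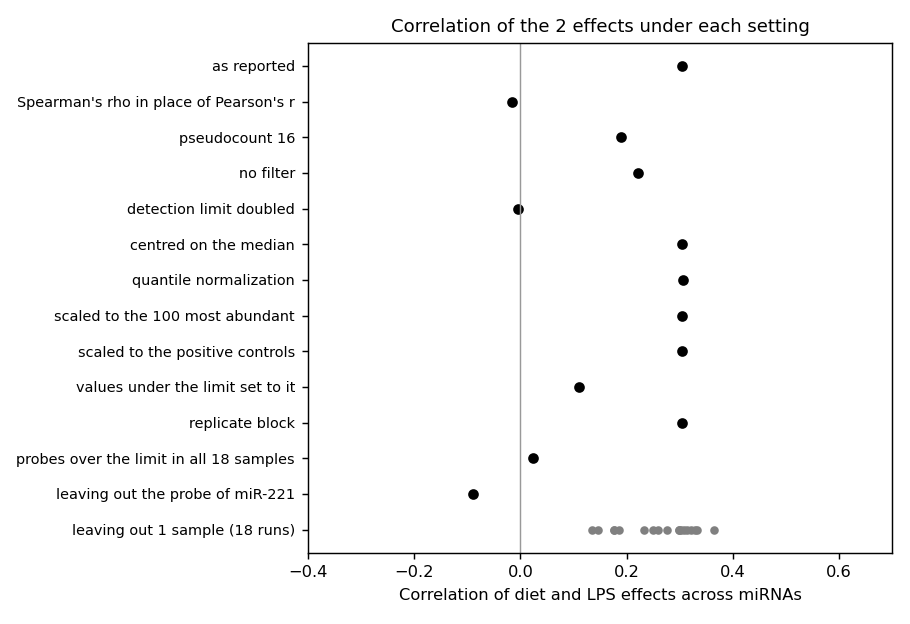
Correlation across miRNAs between diet effect and LPS effect under each processing setting (horizontal axis); black points are single settings and grey points the 18 runs that each leave out 1 sample. The value is 0.304 as reported and -0.0889 without the probe of miR-221, and no setting reaches 0.4.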

How the data were processed

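The deposited table holds 1 signal value per probe and sample, made by the authors with a floor of about 1; the basis of their scaling is not given in the sources used here. Low values step by 1 size per sample from an offset, so they are not whole multiples of 1 count, and no count test was run. Groups came from the sample titles. Values were analysed as log2(signal + 1) with limma 3.58.1 in R 4.3.3 (lmFit, eBayes, Benjamini-Hochberg), each comparison fitted on its own samples and the difference of the effects on all 18. The detection limit, 29.8, is the mean plus 2 SD of 240 negative control values, taken over all 30 samples of the series. A probe was tested with 5 of 10 fat samples over it, 4 of 8 culture samples, or 4 of all 18 for the difference. Totals and mRNA probes were compared by exact permutation tests, two-sided (scipy 1.17.1). The fitting procedure was tested on simulated data.

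The members, the lists and the rule for named miRNAs were chosen with earlier results of these data known. Named are all calls, the largest joint and opposite effects (up to 5 per direction), a fixed set of miRNAs, and up to 4 abundant members per list. Numbers in the labels were checked as pairs through the correlation of deviations from group means. It was 0.671, 0.504, 0.614 and 0.875 for the 4 culture numbers, and -0.632 to 0.271 for the 5 fat numbers. The culture numbers were taken as pairs where the replicate block is named, and the fat numbers were not. The main LPS test and the main difference test left the pairing out, so their standard errors and p-values are unpaired. Alternatives changed the filter, pseudocount, scaling, moderation, values under the limit, pairing, samples fitted and single samples. The labels' codes begin with another letter for fat than for culture, so the kind of sample and whatever the letter marks cannot be told apart. Mature sequences were matched to RefSeq by name, those written out through an assigned arm.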

Additional observations from a re-analysis of the deposited data

Results flagged for a closer look

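miR-221 read 212 in MAT-HFD replicate 1, while the remaining 4 of that group read 364 to 430, and this sample still lay above every MAT-NCD sample. miR-322 read 673 in MAT-HFD replicate 3, against 976 to 1065 in the other 4, and also stayed above every MAT-NCD sample. These were the 2 samples that stood apart by Dixon's criterion among 97 groups of values examined, where chance gives about 1 in 20.

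The diet effect and the LPS effect differed by limma's test for 11 miRNAs. The diet effect was the higher for miR-222 (4.45 log2 units), miR-335-5p (3.77), miR-335-3p (3.51), miR-322 (2.35), miR-1983 (2.34) and miR-652 (2.29). It was the lower for miR-19a (-4.33), miR-193 (-3.48), miR-146a (-2.80), miR-106b (-2.62) and miR-210 (-1.76). Only miR-322, miR-146a and miR-210 were measured in both kinds of sample.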

How the results depend on the processing

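The diet count of 24 was 13 with no filter, 14 scaled to the positive controls, 8 with the replicate block, whose numbers do not pair the fat samples, and 8 to 48 leaving out 1 sample at a time. The LPS count of 2 was 1 with the limit doubled, 5 with samples centred on the median (4 higher, 1 lower), 4 scaled to the positive controls, 8 with the replicate block, 6 in the fit of all 18 samples, and 2 to 4 leaving out 1 sample, with 4 reached without MAT-Ad-LPS replicate 1. The difference count of 11 was 18 after quantile normalization and 3 among only the probes measured in both; the 3 called and measured in both became 9 after quantile normalization and 8 scaled to the 100 most abundant miRNAs. miR-322, miR-210 and miR-146a were called in all 18 leave-one-out fits and all 11 other settings of the difference test. The concordance across miRNAs, an r of 0.304, was -0.0151 as Spearman's rho, -0.00508 with the limit doubled, 0.111 with values set to the limit, 0.0239 over probes above the limit in all 18 samples, -0.0889 without miR-221, and 0.135 to 0.364 leaving out 1 sample, the lowest without MAT-Ad-PBS replicate 1. The percent of miRNAs with the same direction, 73.3%, was 39.2% with no filter, 56.7% centred on the median, 45.6% after quantile normalization, 46.7% scaled to the 100 most abundant, and 56.7% to 76.1% leaving out 1 sample, the lowest without MAT-Ad-LPS replicate 2. The 1 miRNA called in both became 0 with no filter or the limit doubled, and 2 scaled to the 100 most abundant, with the replicate block or in the fit of all 18. Beside miR-221, the scaling added miR-30c, lower in both. The block and the fit of all 18 added miR-322, higher with the diet and lower after LPS. Set to the limit, the differences of miR-106b (0.049) and miR-1983 (-0.16) reversed; the setting makes 1 effect of each a lower bound. The cause of the other changes was not tested. Of the single-miRNA values, 632 kept direction and call, 209 lost the call and 2 reversed. With 4 or 5 samples a group and culture signals near the limit, the median 95% half-width of a difference between the effects was 0.88 log2 units.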
